A study of Mus musculus with 56 samples.

Results

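The RNAPII-pS5 peaks described here came from wild-type (WT) mouse bone marrow-derived macrophages (BMDMs) that were exposed to LPS for 1 hr, either without pretreatment (ctrl/LPS) or after 24 hr of IL-4 (IL-4 PT/LPS). All peaks of these 4 libraries, 2 per group, were used by their named gene and annotation, which gave 65858 peaks from 4 of the 56 samples of the series. Overlapping peaks were merged into 25759 regions, of which 17409 had a peak in at least 2 of the 4 libraries and were tested, and 9491 genes had a peak that was not intergenic, of which 7856 were tested. The comparison asks whether prior IL-4 signaling alters where initiating RNA polymerase II sits in macrophages that meet LPS. The same antibody was also used in cells without LPS, namely untreated BMDMs (ctrl/ctrl) and BMDMs with IL-4 alone (IL-4 PT/ctrl), and RNAPII-pS2 and p65 were measured in the same 4 conditions with 2 libraries each. All groups were cells of WT mice on a C57BL/6 background, 8 to 12 weeks of age, grown out from marrow with L929 supernatant as the source of M-CSF. IL-4 was used at 20 ng/ml and LPS at 100 ng/ml. Chromatin was cross-linked with DSG and formaldehyde, and 2 library kits were in use without a statement of which library was made with which.

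The largest subunit of RNA polymerase II carries a repeated tail that is phosphorylated on serine 5 (pS5) when transcription starts and on serine 2 (pS2) as the polymerase moves through the gene. RNAPII-pS5 is therefore densest near transcription start sites (TSS) and is also found at active enhancers. LPS is sensed by TLR4 and activates NF-kB, whose p65 subunit drives inflammatory genes, whereas IL-4 acts through STAT6 and brings macrophages into the alternatively activated state.

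The sequences of 5 regions are shown because they are among the regions with the largest drops (Hcfc2, Psen2, and Apoc4, intergenic) or rises (Scaf8 and, among regions with a peak in all 4 libraries, Phactr2, both intronic) of RNAPII-pS5 under LPS and hold letters of motifs counted below. Regions carry the name of the gene with the nearest TSS. Each sequence is the + strand of the middle 300 bases of the region's strongest peak, read from GRCm38.p6, which has the coordinates of the mm10 build of the peaks. Capitals mark matches, on either strand, to a STAT motif (TTCNNNNGAA), an NF-kB motif (GGANTTTCC), an AP-1 motif (TGANTCA), a PU.1 motif (GAGGAAGT), and a C/EBP motif (TTGCNNAA), where N is any base and matches of different motifs may overlap. They lie at chr10:82697410-82697709 (Hcfc2, a PU.1 match), chr1:180263486-180263785 (Psen2, a C/EBP and an AP-1 match), chr7:19683804-19684103 (Apoc4, a C/EBP match), chr17:3157516-3157815 (Scaf8, a PU.1 match), and chr10:13300130-13300429 (Phactr2, an NF-kB and a STAT match).
Hcfc2 region: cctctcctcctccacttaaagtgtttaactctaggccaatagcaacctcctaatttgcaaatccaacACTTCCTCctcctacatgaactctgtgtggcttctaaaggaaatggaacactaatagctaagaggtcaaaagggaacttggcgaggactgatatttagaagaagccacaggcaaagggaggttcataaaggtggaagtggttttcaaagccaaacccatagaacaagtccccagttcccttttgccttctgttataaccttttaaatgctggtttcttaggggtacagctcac
Psen2 region: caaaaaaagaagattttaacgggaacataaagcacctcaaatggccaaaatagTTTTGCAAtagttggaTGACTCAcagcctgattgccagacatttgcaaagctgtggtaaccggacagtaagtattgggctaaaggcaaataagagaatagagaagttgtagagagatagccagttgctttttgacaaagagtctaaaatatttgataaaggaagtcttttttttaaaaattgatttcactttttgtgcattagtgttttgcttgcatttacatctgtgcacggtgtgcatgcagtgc
Apoc4 region: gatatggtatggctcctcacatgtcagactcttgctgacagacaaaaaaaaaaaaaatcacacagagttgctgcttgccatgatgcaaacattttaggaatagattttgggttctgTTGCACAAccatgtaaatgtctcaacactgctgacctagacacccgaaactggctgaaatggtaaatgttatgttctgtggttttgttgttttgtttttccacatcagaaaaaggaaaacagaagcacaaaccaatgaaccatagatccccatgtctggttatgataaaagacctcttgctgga
Scaf8 region: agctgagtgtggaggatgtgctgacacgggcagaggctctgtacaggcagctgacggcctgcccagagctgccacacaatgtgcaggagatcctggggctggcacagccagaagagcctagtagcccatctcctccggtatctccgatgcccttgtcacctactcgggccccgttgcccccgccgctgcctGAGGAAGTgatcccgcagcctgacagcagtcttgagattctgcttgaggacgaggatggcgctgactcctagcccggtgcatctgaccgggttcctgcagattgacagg
Phactr2 region: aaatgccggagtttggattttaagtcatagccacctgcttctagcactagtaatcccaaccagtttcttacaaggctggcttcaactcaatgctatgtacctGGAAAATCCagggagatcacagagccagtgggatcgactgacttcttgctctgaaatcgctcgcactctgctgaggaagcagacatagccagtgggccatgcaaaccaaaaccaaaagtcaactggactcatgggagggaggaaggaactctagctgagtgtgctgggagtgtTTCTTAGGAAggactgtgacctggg

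The deposited value of a peak is its score from the peak caller, on a −log10 scale of a p- or q-value, with higher scores for denser peaks. Read depth is not known from these files, and the number of peaks in a list is the nearest measure of it. The ctrl/LPS lists held 14476 and 15349 peaks and the IL-4 PT/LPS lists 17826 and 18207, whereas the libraries without LPS held 19279 to 22149. The median score of a list was between 7.02 and 7.21 in all 8 libraries. Of the regions with a peak in either replicate, 60.7% in ctrl/LPS and 62.4% in IL-4 PT/LPS had it in both, and for the 5032 regions with a peak in all 8 libraries the log2 scores of replicates differed with an SD of 0.53 to 0.55. Where a library had no peak, the lowest score of the 8 lists (1.44) was filled in, and each library was centred on features with a peak in all 8. This centring lowered IL-4 PT/LPS against ctrl/LPS by 0.39 on the log2 scale for genes and 0.19 for regions, and the median difference of all genes tested was 0.25 with it, 0.60 without it, and 0.08 after quantile normalization. The study describes the replicates as independent biological replicates. A lower score in cells taken in bulk can reflect fewer cells with polymerase at a site or less polymerase per cell, which cannot be told apart here. Of the 15 macrophage markers, 13 had a peak outside intergenic regions in at least 1 of the 8 libraries, Spi1 and Cebpb being the exceptions. No such peak in any of the 8 was found for 6 of 10 T cell markers (Cd3e, Cd3g, Cd4, and Cd8a among them), 5 of 8 B cell markers (such as Cd79a and Pax5), 4 of 10 neutrophil markers (such as Ly6g, Mpo, and Elane), 7 of 9 fibroblast markers (such as Col1a1, Col1a2, and Dcn), 5 of 8 dendritic cell markers, and 9 of 11 erythroid, mast, and basophil markers. The other markers of these lists did have peaks, such as the T cell gene Cd3d with 7.22 and 15.29 in ctrl/LPS and 14.63 and 11.75 in IL-4 PT/LPS, Lck with 15.31 and 10.93 against 14.85 and 19.89, and the B cell gene Ms4a1, given below.

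Among promoter-TSS, intronic, and intergenic RNAPII-pS5 peaks, the promoter-TSS peaks differed most in number between the groups. Promoter-TSS peaks numbered 2112 and 2184 in ctrl/LPS and 3210 and 3248 in IL-4 PT/LPS, next to 4225 and 3860 in ctrl/ctrl and 3948 and 4021 in IL-4 PT/ctrl. Both ctrl/LPS libraries thus had fewer promoter peaks than any other library. As a share of all peaks, promoter-TSS peaks made up 14.6% and 14.2% in ctrl/LPS and 18.01% and 17.84% in IL-4 PT/LPS. Intergenic peaks numbered 5585 and 5979 in ctrl/LPS and 6284 and 6351 in IL-4 PT/LPS, and intronic peaks 5471 and 5800 against 6460 and 6678. The median score of a promoter-TSS peak was 6.96 and 7.32 in ctrl/LPS and 9.08 and 9.06 in IL-4 PT/LPS, whereas that of an intergenic peak was 7.22 and 7.41 against 6.82 and 6.87. Promoter peaks were thus both more numerous and stronger in both IL-4 PT/LPS libraries, and intergenic peaks more numerous and weaker.

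**Figure D1:**
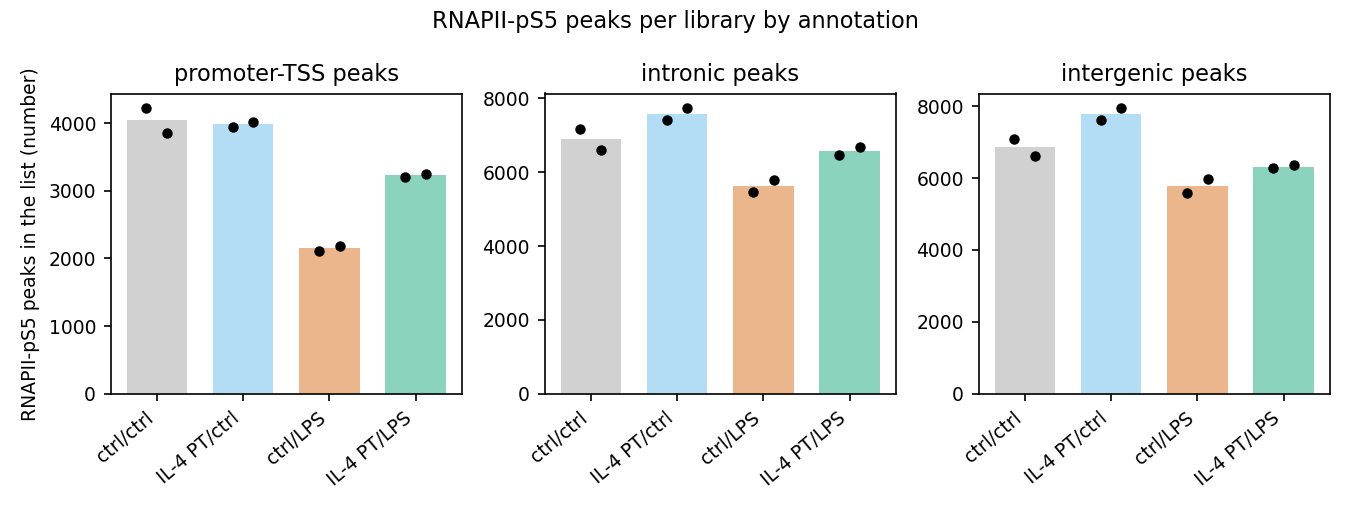
Number of RNAPII-pS5 peaks per library (y axes, peaks in the list) annotated as promoter-TSS, intronic, and intergenic, with a bar for the mean of each group and a point for each of its 2 libraries. Promoter-TSS peaks number 2112 and 2184 in ctrl/LPS and 3210 and 3248 in IL-4 PT/LPS, while the groups lie closer together for intergenic peaks.

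Region by region, the highest score in each library was compared with limma over all 8 libraries (4 groups of 2, Benjamini-Hochberg adjusted p of at most 0.05). RNAPII-pS5 was lower in IL-4 PT/LPS at 1870 regions (10.7% of those tested) and higher at 3106 (17.8%). Much of this was presence against absence of a peak, since 1122 of the lower regions (60.0%) had no peak in IL-4 PT/LPS and 2469 of the higher regions (79.5%) had none in ctrl/LPS. Among the 7970 regions with a peak in each of the 4 libraries, tested on their own, 361 were lower (4.53%) and 249 higher (3.12%), so the larger number was then on the lower side. By the rule that the groups stand apart with a log2 difference of at least 1, 3065 regions were lower (17.6%) and 4739 higher (27.2%). When the same number of top peaks (14476) was taken from every list, an alternative chosen after the data were seen, 1962 regions were lower and 2128 higher of 15465. Quantile normalization gave 2132 and 2227, and no centring 1564 and 3479, which moved the higher share of the calls from 62.4% to 52.0%, 51.1%, and 68.99%, respectively. Without ctrl/LPS replicate 1 or 2, 1270 or 1289 regions were lower and 2514 or 2683 higher, and without IL-4 PT/LPS replicate 1 or 2, 1605 or 1656 and 2199 or 2208.

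Of 2987 promoter-TSS regions, 734 (24.6%) were higher in IL-4 PT/LPS and 88 (2.95%) lower, with a median log2 difference between group means of 0.83. Medians taken within each of the 4 pairs of an IL-4 PT/LPS and a ctrl/LPS library were 0.79 to 0.80. These pairs share libraries, so their range does not measure the spread of replicates. Of 6390 intergenic regions, 988 (15.5%) were higher and 921 (14.4%) lower, with a median of −0.13 (0.03 without centring and −0.27 after quantile normalization). Intronic regions lay in between, with 1035 (16.2%) higher and 739 (11.6%) lower of 6378 and a median of 0.04 (−0.07 after quantile normalization), and exonic regions resembled promoters with a median of 0.66 over 398. The order was the same where every LPS library had a peak, since the medians were 0.37 at 1440 promoter-TSS, −0.12 at 2795 intronic, and −0.26 at 2958 intergenic regions. In that set 104 promoter-TSS regions were higher and 15 lower, against 57 and 198 intergenic regions. At the 2987 promoter-TSS regions, the median score was 9.15 and 8.39 in ctrl/ctrl, 8.86 and 9.24 in IL-4 PT/ctrl, 5 and 5.33 in ctrl/LPS, and 9.39 and 9.58 in IL-4 PT/LPS. The ctrl/LPS libraries were thus the low ones, and IL-4 alone moved the median of these regions by 0 on the log2 scale. LPS alone, which uses the same ctrl/LPS libraries, had medians of −0.53 at promoter-TSS and 0.42 at intergenic regions. The lower regions had a median distance of 20313 bp from the nearest TSS and the higher regions 4694.5 bp, against 8041 bp for regions not called, and 7.91%, 37.4%, and 30.3% of them lay within 1000 bp. Peaks annotated to simple, satellite, or ribosomal RNA repeats made up 4.39% of the lower, 1.06% of the higher, and 1.24% of the other regions.

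**Figure D2:**
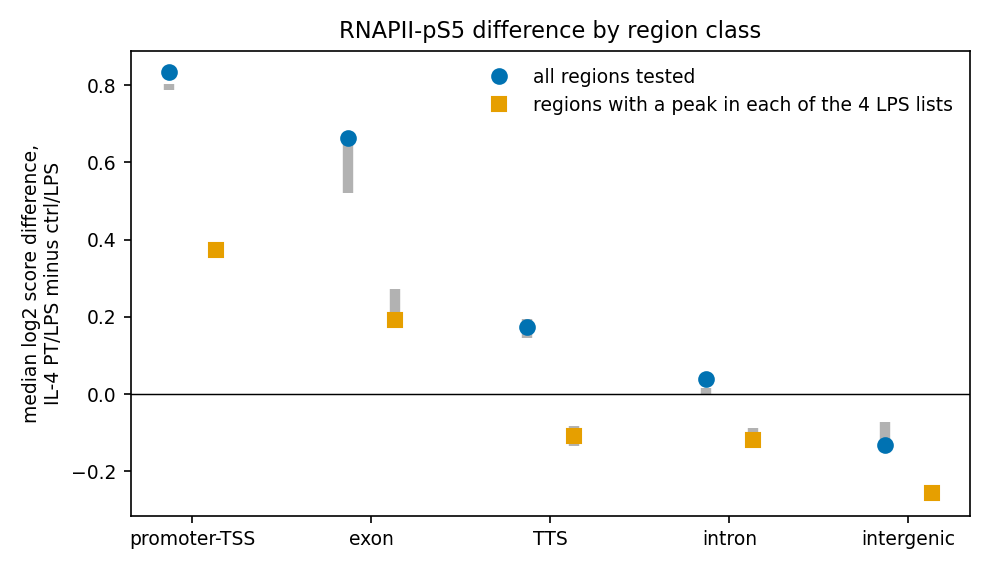
Median log2 difference of the RNAPII-pS5 score, IL-4 PT/LPS minus ctrl/LPS (y axis), by region class for all regions tested (circles) and those with a peak in each of the 4 LPS libraries (squares). Grey bars span the medians of the 4 pairs of an IL-4 PT/LPS and a ctrl/LPS library, and both series run from promoter-TSS (0.83 and 0.37) down to intergenic regions (−0.13 and −0.26). The pairs share libraries, so the bars do not measure the spread of replicates.

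The distal regions with the largest drops had strong peaks in both ctrl/LPS libraries and no peak in IL-4 PT/LPS. The intergenic region 8.78 kb from the TSS of Clec4g (chr8:3711604-3712138), a C-type lectin gene, scored 35.55 and 26.57 in ctrl/LPS, and 85.13 and 60.71 in ctrl/ctrl. The Hcfc2 region (chr10:82697284-82697811), 1.45 kb upstream of the TSS, scored 23.8 and 26.33. The Psen2 region (chr1:180263399-180263867) scored 20.2 and 27.9, and the Apoc4 region (chr7:19683694-19684260) 24.44 and 21.95. At these 4 regions the adjusted p was 0.000568. It was 0.00921 at a region 2.40 kb from the TSS of Otud7b (chr3:96101882-96102405), in an intron of another transcript and with 25.9 and 20.89. At all 5 regions both IL-4 PT/LPS libraries hold the same filled-in score, so that group shows no spread. The adjusted p-values, and those of the interaction below, rest on that score. The filter kept such a region only if both ctrl/LPS libraries had the peak. Peaks were also present at all 5 in ctrl/ctrl, and IL-4 alone lowered the Clec4g, Hcfc2, and Otud7b regions, the first to 19.68 and 24.69 (adjusted p = 0.0141). The drop under LPS was larger than that without LPS at the Clec4g, Hcfc2, Psen2, and Apoc4 regions (interaction adjusted p of 0.00493, 0.0133, 0.00473, and 0.00369). p65 at these regions was present in all 4 LPS libraries, and at the Hcfc2 region its score was 22.81 and 25.83 in ctrl/LPS and 13.66 and 11.33 in IL-4 PT/LPS (log2 −1.21 ± 0.25 SE, adjusted p = 0.0394), the sole lower p65 call of the 5.

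Regions with the largest rises had no peak in ctrl/LPS. An intron of Scaf8 (chr17:3157307-3158089), whose protein binds the polymerase tail, scored 31.08 and 41.23 in IL-4 PT/LPS and 4.79 and 5.6 in IL-4 PT/ctrl. An intergenic region nearest to Pou1f1 (chr16:65448752-65450395) scored 30.91 and 32.79 and had a peak in no other library. The Xcr1 region (chr9:123872746-123873335) scored 21.79 and 29.89, and the Nprl3 intron region (chr11:32266962-32267756), 237 bp from the TSS in a CpG island, 22.63 and 28.08. The adjusted p of these 4 regions was 0.000568 to 0.00107, which rests on the filled-in score of 1.44 in ctrl/LPS, and the filter kept such a region only if both IL-4 PT/LPS libraries had the peak.

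Regions with a peak in all 4 LPS libraries give a difference that does not rest on a missing peak, and the 3 largest each way were chosen after their values were seen. The first intron of Dmwd (chr7:19077679-19078251) scored 48.04 and 47.71 in ctrl/LPS and 4.58 and 11.75 in IL-4 PT/LPS (log2 −2.90 ± 0.42, adjusted p = 0.00442). An intergenic region 71.4 kb from Vegfa (chr17:45953460-45954016) scored 47.22 and 78.48 against 7.58 and 14.52 (−2.73 ± 0.39, adjusted p = 0.00408), while p65 there was 33.42 and 29.21 against 35.21 and 38.42. A region 6.40 kb from the TSS of Lyz2 (chr10:117275227-117276478), the lysozyme gene of macrophages, scored 37.75 and 28.52 against 7.45 and 4.86 (−2.64 ± 0.28, adjusted p = 0.0013). At all 3 the IL-4 PT/LPS libraries were the lowest of the 8. In the other direction, the first intron of Phactr2 (chr10:13299273-13301452) scored 3.48 and 3.71 in ctrl/LPS and 32.79 and 37.93 in IL-4 PT/LPS (3.10 ± 0.30, adjusted p = 0.000932). The first intron of Polr3e (chr7:120918257-120919062), a subunit of RNA polymerase III, scored 5.16 and 6.71 against 37.09 and 36.05 (2.44 ± 0.22, adjusted p = 0.000767). An intergenic region 12.8 kb upstream of Lgals3 (chr14:47360282-47362285), the gene of galectin-3, scored 7.98 and 12.39 against 61.15 and 58.51 (2.40 ± 0.23, adjusted p = 0.000883), and p65 there rose from 22.58 and 19.59 to 72.85 and 81.05 (adjusted p = 0.0131). IL-4 alone raised RNAPII-pS5 at the Phactr2, Polr3e, and Lgals3 regions as well, with 73.3 and 97.76 at Lgals3 against 25.06 and 21.28 in ctrl/ctrl (adjusted p = 0.00946).

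Summed over the peaks of a gene that were not intergenic, RNAPII-pS5 was lower in IL-4 PT/LPS at 515 genes (6.56% of 7856) and higher at 976 (12.4%). For genes, no peak means none outside intergenic regions, and an intergenic peak near the gene may still be present. Of the lower genes, 192 (37.3%) had no peak in IL-4 PT/LPS, and of the higher genes, 749 (76.7%) had none in ctrl/LPS. Among the 4421 genes with a peak in each of the 4 libraries, tested on their own, 237 were lower (5.36%) and 114 higher (2.58%), and by groups that stand apart with a log2 difference of at least 1, 977 were lower (12.4%) and 2068 higher (26.3%). The higher share of the calls was 65.5%, and it was 81.8% without centring (321 lower, 1440 higher) and 46.8% after quantile normalization (503 and 443). Leaving out a library gave 255 lower and 624 higher genes without ctrl/LPS replicate 1, 273 and 751 without ctrl/LPS replicate 2, 282 and 422 without IL-4 PT/LPS replicate 1, and 289 and 408 without IL-4 PT/LPS replicate 2. The named gene of a peak is the one with the nearest TSS, and for 76.4% of 94804 peaks it was also the gene of the annotated transcript. Calls by the gene of the transcript numbered 457 lower and 895 higher of 7601, and of the genes named below as called, Mrc1, Egr2, Il4i1, Dusp1, Nlrp1b, Psap, Tcirg1, Ciita, and Tnip1 were not called that way, and Egr3, H2-Oa, and Themis had no value that could be tested. With intergenic peaks counted as well, 836 genes were lower and 1275 higher of 9594, and Tnfsf4, Egr2, Edn1, Myc, Fcgr2b, Fcgr3, Dusp1, Nlrp1b, Nek7, Il1rn, Csf2, Ctsh, Ciita, H2-Oa, Cyld, Tnip1, S100a8, Ptger2, Ticam2, and Tlr1 were not called.

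Of the 10 genes with the largest drops, 8 had no peak in IL-4 PT/LPS. Il10, the gene of the anti-inflammatory cytokine IL-10, scored 14.72 and 17.62 in ctrl/ctrl, 8.75 and 10.52 in IL-4 PT/ctrl, 27.85 and 17.56 in ctrl/LPS, and had no peak inside the gene in either IL-4 PT/LPS library (adjusted p = 0.00491). Its peaks in ctrl/LPS lay in an intron, an exon, and at the transcription termination site (chr1:131020511-131021216, chr1:131021281-131021918, and chr1:131025387-131026152). A region 26.5 kb downstream (chr1:131045356-131047469) kept its peak with 5.77 and 4.99 in ctrl/LPS and 7.84 and 6.68 in IL-4 PT/LPS, and RNAPII-pS2 over Il10 was 25.16 and 36.5 against 27.95 and 27.98, which did not pass the test (adjusted p = 0.81). Ros1, a receptor tyrosine kinase gene, scored 21.04 and 23.72 in ctrl/LPS (adjusted p = 0.00491), and its peak lies over a simple tandem repeat in an intron. Ppef2, a calcium-binding phosphatase gene, scored 19.89 and 23.13 (adjusted p = 0.00491) and fell with IL-4 alone from 30.75 and 36.6 to 6.14 and 6.01. Tnfsf4, which encodes the T cell costimulator OX40 ligand, scored 20.74 and 10.88 in ctrl/LPS (adjusted p = 0.00548), while its intergenic peaks summed to 46.19 and 52.35 in ctrl/LPS, 52.07 and 66.41 in IL-4 PT/LPS, and 11.88 and 20.98 in IL-4 PT/ctrl. Asb5 scored 13.66 and 18.26 in ctrl/LPS (adjusted p = 0.00491), and outside intergenic regions neither gene had a peak without LPS. Saal1 had 26.63 and 26.23 in ctrl/LPS and a single peak of 2.33 in IL-4 PT/LPS replicate 1 (adjusted p = 0.00882), and Tango6, a gene of Golgi organization, had 22.33 and 27.93 and a single peak of 3.9 there (adjusted p = 0.00777). Rdh10, a retinol dehydrogenase gene, Setd4, a methyltransferase gene, and Sim1, a transcription factor gene, completed the 10 with 11.73 to 17.22 in the ctrl/LPS libraries (adjusted p of 0.00622 to 0.00775). Rdh10 and Sim1 had no testable value when peaks were given to the gene of the transcript. With 1 LPS library left out at a time, Saal1 was the 1 gene of the 10 whose call was lost, without IL-4 PT/LPS replicate 2. In the 8 genes with no peak in IL-4 PT/LPS, both libraries of that group hold the same filled-in score. Leaving out 1 of them does not change the group's mean, so that check says nothing on the spread of that group.

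All 10 genes with the largest rises had peaks in both IL-4 PT/LPS libraries and none in ctrl/LPS outside intergenic regions. Intergenic peaks under 4 of the names were present in ctrl/LPS, with 4.83 and 4.44 for Klf9 and a single peak of 3.74 for Slc7a2, 3.87 for Ear11, and 3.7 for Cdk5r1. Slc7a2, which encodes the cationic amino acid transporter that supplies arginine, scored 35.4 and 34.35 in IL-4 PT/LPS and had a single peak of 6.25 of this kind without LPS, in IL-4 PT/ctrl replicate 2 (adjusted p = 0.008). Ear11, an RNase A family gene of alternatively activated macrophages, scored 28.22 and 28.15 and, without LPS, 62.54 and 62.09 in IL-4 PT/ctrl (adjusted p = 0.00491). Klf9, a Krueppel-like transcription factor gene, scored 32.62 and 22.49 (adjusted p = 0.00491), and IL-4 alone raised it from 6.05 and 6.27 to 32.95 and 39.6. Scaf8 scored 31.08 and 41.23 (adjusted p = 0.00491), all of it from the intronic region above. Mtch2, whose protein inserts others into the mitochondrial outer membrane, scored 19.31 and 34.96 (adjusted p = 0.00548) and Wdr4, a subunit of a tRNA methyltransferase, 25.37 and 27.05 (adjusted p = 0.00491), and both had peaks in all 4 libraries without LPS, from 10.49 to 31.26. Nos1ap, an adaptor of neuronal nitric oxide synthase, scored 23.51 and 29.67 (adjusted p = 0.00491), and Micalcl scored 26.28 and 36.55 (adjusted p = 0.00491). Cdk5r1, the activator of the kinase Cdk5, scored 32.02 and 21.27 (adjusted p = 0.00593), and Ccdc171 28.21 and 26.37 (adjusted p = 0.0168). Micalcl, Ear11, Ccdc171, and Cdk5r1 had no testable value by the gene of the transcript. Of these calls, that of Ccdc171 was lost without each of the 4 libraries in turn, and the others stood. Both ctrl/LPS libraries hold the same filled-in score at all 10, so leaving out 1 of these does not test the spread of that group.

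**Figure D3:**
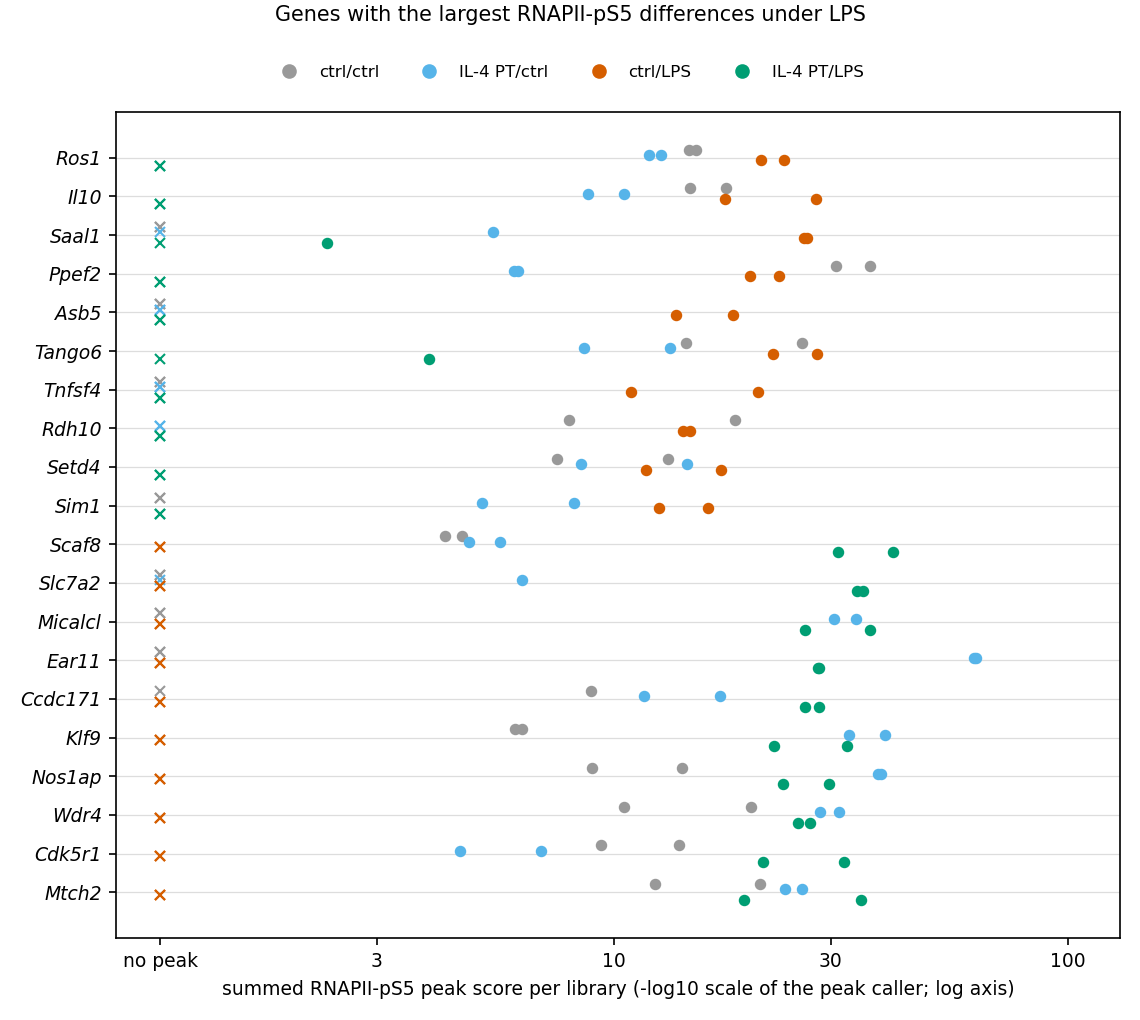
Summed RNAPII-pS5 score (x axis, −log10 scale of the peak caller, log axis) of the 10 genes with the largest drop (top) and the 10 with the largest rise (bottom), with a point for each of the 8 libraries and a cross at the left where a library had no peak outside intergenic regions. The ctrl/LPS points sit right of the IL-4 PT/LPS points for the upper genes, and for the lower genes both ctrl/LPS libraries are at "no peak".

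Of 37 genes of the alternatively activated state, 27 were tested, 10 rose (37.0%), 3 fell (11.1%), and 14 did not pass the test, against 6.56% lower and 12.4% higher of all genes, with a median of 0.70 beside 0.25 for all genes. The count of rises was 10 without centring, 7 after quantile normalization, and 8 with equal numbers of peaks, but 2 among the 16 members with a peak in all 4 LPS libraries, whose median was −0.14. Retnla, the resistin-like secreted marker of the state, had no peak in ctrl/ctrl or ctrl/LPS and scored 73.71 and 82.15 in IL-4 PT/ctrl and 26.56 and 13.46 in IL-4 PT/LPS (adjusted p = 0.00654). Ccl22, a chemokine gene that draws T cells, had a peak in IL-4 PT/LPS alone, with 13.61 and 14.19 (adjusted p = 0.00491). Edn1, the gene of endothelin-1, scored 7.33 and 3.81 in ctrl/LPS and 51.67 and 43.34 in IL-4 PT/LPS (log2 2.78 ± 0.53, adjusted p = 0.0155), and 5.23 and 8.74 in IL-4 PT/ctrl. Edn1 was thus highest where both agents were given, whereas Retnla was highest with IL-4 alone. Myc, the transcription factor gene, had a single ctrl/LPS peak of 4.21 and scored 19.62 and 21.74 in IL-4 PT/LPS (adjusted p = 0.0255). Matk, a kinase gene, scored 11.84 and 8.69 and Cdh1, the E-cadherin gene, 6.88 and 6.71, with no peak in ctrl/LPS (adjusted p of 0.00947 and 0.023). Il4i1, a secreted amino acid oxidase gene, scored 5.28 and 5.12 against 20.48 and 25.77 (1.76 ± 0.46, adjusted p = 0.0391), but peaks annotated to its transcript had a single value of 5.12 in ctrl/LPS and of 10.07 in IL-4 PT/LPS (0.32 ± 0.95, adjusted p = 0.861). Egr2, a STAT6-induced transcription factor gene, scored 10.68 and 11.36 against 28.28 and 31.84 (1.06 ± 0.30, adjusted p = 0.0485). Slc7a2 and Ear11, given above, were the others that rose.

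The members that fell were Ch25h, Mrc1, and Cd36. Ch25h, the gene of the enzyme that makes 25-hydroxycholesterol, scored 15.66 and 9.71 in ctrl/LPS and had no peak in IL-4 PT/LPS (adjusted p = 0.00775). Mrc1, the mannose receptor gene and itself a marker of alternative activation, scored 19.54 and 22.23 against 15 and 8.2 (−1.30 ± 0.33, adjusted p = 0.0348), although IL-4 alone gave 43.4 and 48.96 against 26.55 and 34.02. Cd36, a scavenger receptor gene, scored 97.38 and 87.06 against 60.36 and 66.56 (−0.92 ± 0.20, adjusted p = 0.0225). Arg1, the arginase gene, lies outside the naming rule and is given as the usual marker: it scored 40.38 and 46.53 in IL-4 PT/ctrl, had a single peak of 11.36 in ctrl/LPS, and scored 9.64 and 8.2 in IL-4 PT/LPS, which did not pass the test. Retnla, Ccl22, Slc7a2, Ear11, Matk, and Ch25h kept their calls without any 1 library, but each had no peak in 1 of the groups. Cd36, Cdh1, Egr2, and Il4i1 lost theirs without each of the 4 in turn (adjusted p of up to 0.14, 0.0644, 0.163, and 0.182), Myc without each but ctrl/LPS replicate 2 (up to 0.126), Mrc1 without each but IL-4 PT/LPS replicate 1 (up to 0.119), and Edn1 without either IL-4 PT/LPS library (up to 0.084).

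MHC class II genes serve antigen presentation. Summed over the 11 genes, the RNAPII-pS5 score was 35.89 and 31.18 in ctrl/LPS, 120.28 and 109.11 in IL-4 PT/LPS, 59.28 and 64.25 in ctrl/ctrl, and 112.25 and 114.69 in IL-4 PT/ctrl. Of 9 tested, 4 rose (44.4%, against 6.56% lower and 12.4% higher of all genes), none fell, and 8 had a difference above 0, with a median of 1.89. The unadjusted p in limma was at most 0.05 for 6 above and 0 below, against 964 lower and 1770 higher of all 7856 genes. H2-DMa, the peptide-loading chaperone gene, had no peak in ctrl/LPS and scored 26.05 and 12.31 in IL-4 PT/LPS (adjusted p = 0.00996). H2-Aa, an alpha chain gene, had none and then 7.46 and 9.39 (adjusted p = 0.0203), and H2-Oa, which regulates peptide loading, none and then 3.85 and 5.65 (adjusted p = 0.0137). Ciita, the master regulator of the class II genes, scored 4.39 with no second peak in ctrl/LPS and 18.01 and 18.8 in IL-4 PT/LPS (adjusted p = 0.0497). An intergenic region 4002 bp upstream of the Ciita TSS (chr16:10475846-10476445), outside this sum, went the other way. It scored 8.48 and 7.33 in ctrl/LPS and had no peak in IL-4 PT/LPS (adjusted p = 0.00151, which rests on the filled-in score). H2-DMa, H2-Aa, and H2-Oa had no ctrl/LPS peak and so entered the test through their IL-4 PT/LPS peaks. Cd74, the invariant chain gene, scored 21.04 and 16.96 against 30.6 and 32.93 (0.36 ± 0.23, adjusted p = 0.312), and H2-Ob did not differ beyond its spread either (−0.06 ± 0.50). The number that rose was 6 without centring, 3 with equal numbers of peaks, and 1 after quantile normalization, and neither of the 2 genes with a peak in each library was called. Without any 1 library H2-Oa stayed called, whereas H2-DMa was lost without IL-4 PT/LPS replicate 1 (adjusted p = 0.0594), Ciita without any library but ctrl/LPS replicate 1 (up to 0.2), and H2-Aa without each of the 4 (0.0544 to 0.0785).

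Fc gamma receptor genes encode receptors that bind antibody-coated particles. Their summed score over 6 genes was 100.2 and 108.59 in ctrl/LPS and 35.21 and 36.1 in IL-4 PT/LPS, next to 139.71 and 123.9 in ctrl/ctrl and 120.29 and 105.22 in IL-4 PT/ctrl. Of 5 tested, 4 fell (80.0%, against 6.56% lower and 12.4% higher of all genes) and none rose, with a median of −2.35. The count was 3 or 4 with and without centring, after quantile normalization, and with equal numbers of peaks, 3 of the 4 members with a peak in each library, and 2 with intergenic peaks counted. Fcgr1, the high-affinity receptor gene, scored 54.18 and 55.81 in ctrl/ctrl, 18.11 and 17.89 in IL-4 PT/ctrl, 38.73 and 39.72 in ctrl/LPS, and 5.05 and 9.08 in IL-4 PT/LPS (log2 −2.92 ± 0.30, adjusted p = 0.00491). Its intron peak 739 bp from the TSS (chr3:96292344-96294002) fell from 24.75 and 24.1 to 5.05 and 6.41, and an intergenic region upstream (chr3:96300042-96303002) from 41.92 and 48.86 to 20.03 and 21.73. RNAPII-pS5 at Fcgr1 was thus lowest in IL-4 PT/LPS, and IL-4 alone lowered it too (−1.67). Fcgr3 scored 23.24 and 21.99 against 5.01 and 6.72 (−2.35 ± 0.41, adjusted p = 0.0127), and the inhibitory receptor gene Fcgr2b 12.72 and 8.19 against 3.45 and 5.97 (−1.55 ± 0.39, adjusted p = 0.0349). Fcgr4 scored 12.44 and 21.32 in ctrl/LPS and had a single peak of 3.42 in IL-4 PT/LPS (adjusted p = 0.0154). Fcer1g, the shared signaling chain gene, scored 13.07 and 17.37 against 18.28 and 14.33 and did not pass the test (adjusted p = 0.716). Fcgr1 kept its call without any 1 library. Fcgr2b lost it without ctrl/LPS replicate 1 or IL-4 PT/LPS replicate 1 (adjusted p of up to 0.123), Fcgr3 without any library but ctrl/LPS replicate 2 (up to 0.0783), and Fcgr4 without replicate 2 of either group (up to 0.0727).

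**Figure D4:**
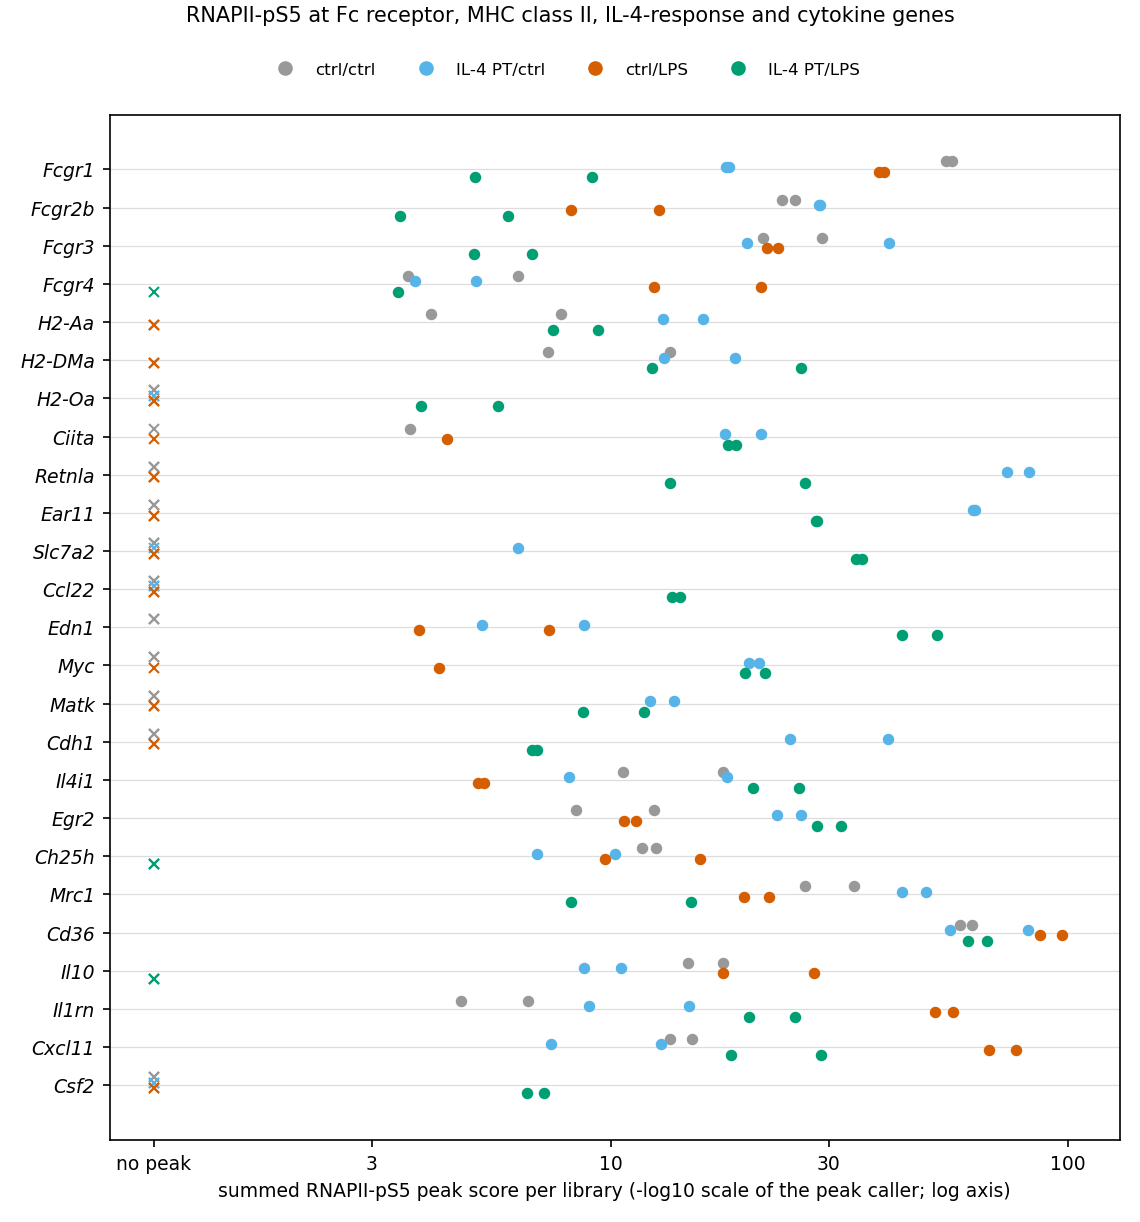
Summed RNAPII-pS5 score (x axis, −log10 scale of the peak caller, log axis) of Fc receptor, MHC class II, IL-4-response, and cytokine genes, with a point for each of the 8 libraries and a cross where a library had no peak outside intergenic regions. The 4 Fc receptor genes at the top have their IL-4 PT/LPS points left of their ctrl/LPS points, while both IL-4 PT/LPS points lie right of ctrl/LPS from H2-Aa to Egr2.

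Of 17 inflammatory cytokine genes tested of 22, 2 fell (11.8%) and 1 rose (5.88%), with a median of −0.45. Of 15 chemokine genes tested of 20, 1 fell (6.67%) and none rose, with a median of −0.39, against 6.56% lower and 12.4% higher of all genes. At an unadjusted p of at most 0.05 in limma, the lower and higher counts were 5 and 1 for cytokine and 2 and 1 for chemokine genes. By that limit, 964 of all 7856 genes were lower and 1770 higher. Summed over the 20 chemokine genes, the score was 665.71 and 671.82 in ctrl/LPS and 663.84 and 665.01 in IL-4 PT/LPS, against 164.3 to 187.2 without LPS. Il1rn, the IL-1 receptor antagonist gene, scored 56.01 and 51.18 in ctrl/LPS and 20.02 and 25.26 in IL-4 PT/LPS (−1.64 ± 0.36, adjusted p = 0.0238). Cxcl11, an interferon-induced T cell chemokine gene, scored 67.28 and 77.07 against 28.81 and 18.35 (−2.03 ± 0.35, adjusted p = 0.0126). Most of this sum came from introns of other transcripts, since peaks annotated to the Cxcl11 transcript were 3.54 and 5.41 in ctrl/LPS with none in IL-4 PT/LPS, which was called lower as well (−1.86 ± 0.32, adjusted p = 0.0126). Il10, described above, was the other cytokine gene that fell, and Csf2, the GM-CSF gene, had a peak at its transcription termination site (chr11:54246317-54247291) in IL-4 PT/LPS alone, with 6.54 and 7.13 (adjusted p = 0.00609). An intergenic region nearest to Csf2 (chr11:54236819-54237439) scored 10.93 and 8.61 in ctrl/LPS and 6.03 and 4.53 in IL-4 PT/LPS, so the gene was not without peaks in ctrl/LPS. Of these, Il10 and Csf2 kept their calls without any 1 library, Il1rn lost it without each of the 4 (adjusted p of up to 0.123) and Cxcl11 without each but IL-4 PT/LPS replicate 1 (up to 0.0693). The classical LPS-induced cytokine genes Tnf and Il6, named outside the rule, did not pass the test. Tnf scored 81.16 and 78.34 against 76.14 and 76.45, and Il6 41.25 and 34.86 against 29.58 and 25.78. Ccl8 had a single ctrl/LPS peak of 7.45 and scored 16.61 and 16.29 in IL-4 PT/LPS (adjusted p = 0.108).

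Tlr2, Cd14, Clec4d, Nlrp3, and Il1b are named as genes the study followed, and none of the 5 had a RNAPII-pS5 call here. The study reported weaker LPS induction of Tlr2, Cd14, Clec4d, and Nlrp3 mRNA after IL-4 pretreatment, with a longer LPS exposure than here. For Il1b it reported lower mRNA and, over the gene body, lower RNAPII-pS5 and RNAPII-pS2 binding. Those are measures of mRNA or of ChIP-seq signal, whereas peak scores were compared here. A missing call here is thus no test of those results. Tlr2, the lipopeptide receptor gene, scored 25.83 and 10.73 in ctrl/LPS and 20.34 and 14.54 in IL-4 PT/LPS (−0.34 ± 0.88, adjusted p = 0.832). Cd14, the LPS coreceptor gene, scored 35.06 and 30.26 against 22.01 and 22.25 (−0.94 ± 0.27, adjusted p = 0.0505), and Clec4d, a C-type lectin gene, 51.72 and 42.43 against 37.69 and 29.68 (−0.87 ± 0.30, adjusted p = 0.0846). The IL-4 PT/LPS libraries were thus below both ctrl/LPS libraries at Cd14 and Clec4d and overlapped them at Tlr2. Without LPS, IL-4 lowered Cd14 from 28.58 and 18.57 to 7.29 and 6.99 and Clec4d from 41.42 and 33.01 to 8.81 and 5.41. Nlrp3, the inflammasome sensor gene, scored 39.91 and 31.46 against 30.66 and 38.47 (adjusted p = 0.493). Il1b, the IL-1beta gene, had no LPS peak under its own name outside intergenic regions, while peaks annotated to its transcript summed to 36.51 and 49.48 in ctrl/LPS and 9.94 and 15.71 in IL-4 PT/LPS (−2.13 ± 0.60, adjusted p = 0.0507), which were apart and not past the threshold. The intergenic region nearest to the Il1b TSS (chr2:129379798-129381867) scored 16.88 and 20.74 in ctrl/LPS and 13.71 and 10.03 in IL-4 PT/LPS (−0.87 ± 0.35, adjusted p = 0.116). Another (chr2:129409402-129410747) scored 16.34 and 7.28 against 13.17 and 6.28 (adjusted p = 0.603), and neither passed the test. The study reported opposite regulation by LPS and IL-4 at an enhancer near Il1b. Whether either region is that enhancer was not tested.

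Of 21 Toll-like receptor and adaptor genes tested of 26, 1 fell (4.76%) and 3 rose (14.3%), against 6.56% lower and 12.4% higher of all genes (median −0.14, and 0.24 without centring). The counts were 1 and 0 with equal numbers of peaks, 0 and 4 without centring, and 0 and 1 after quantile normalization. Myd88, the adaptor gene shared by most Toll-like receptors, scored 43.61 and 40.38 against 23.55 and 27.26 (−1.11 ± 0.23, adjusted p = 0.0203). Tlr8 and Ticam2, an adaptor gene of TLR4, had no peak in ctrl/LPS and scored 8.55 and 17.42 and 9.65 and 4.63 in IL-4 PT/LPS (adjusted p of 0.012 and 0.0384), and Tlr1 scored 4.69 and 9.22 against 23.42 and 27.25 (1.56 ± 0.43, adjusted p = 0.0446). Of 25 NF-kB subunit and feedback genes tested of 26, 1 fell and 2 rose, which became 0 and 2 without centring, 1 and 1 with equal numbers of peaks, and 0 and 0 after quantile normalization. Bcl3, a nuclear IkB family gene, fell from 34.71 and 48.45 to 13.32 and 23.74 (−1.59 ± 0.43, adjusted p = 0.0427). Most of this sum was an intron peak (chr7:19816477-19818112). The intergenic region nearest to the Bcl3 TSS (chr7:19823491-19824405) rose from 7.39 and 12.75 to 22.9 and 21.4 (adjusted p = 0.0402), and another intergenic region did not pass the test. Tnip1, a partner of the inhibitor A20, rose from 9.46 and 11.57 to 26.27 and 33.22 (1.11 ± 0.29, adjusted p = 0.0372), and Cyld, a deubiquitinase gene, had no ctrl/LPS peak and then 5.07 and 5.27 (adjusted p = 0.0408), with a log2 difference of −0.0859 over peaks with a score of at least 5. Of 22 inflammasome genes tested of 29, Nek7, the kinase gene that NLRP3 activation needs, rose from 12.25 and 24.43 to 70.39 and 53.34 (1.44 ± 0.33, adjusted p = 0.0271), and Nlrp1b fell from 37.05 and 39.53 to 20.2 and 31.21 (−0.99 ± 0.26, adjusted p = 0.0396). These calls were all lost without 1 or more libraries: those of Ticam2, Cyld, Tnip1, and Bcl3 without each of the 4 (adjusted p of up to 0.143, 0.0978, 0.119, and 0.243), those of Tlr1 and Nek7 without any but ctrl/LPS replicate 2 (up to 0.186 and 0.157), that of Nlrp1b without any but IL-4 PT/LPS replicate 2 (up to 0.131), that of Myd88 without replicate 1 of either group (up to 0.0697), and that of Tlr8 without IL-4 PT/LPS replicate 2 (0.0508).

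Immediate-early genes are induced within minutes by many stimuli. Of 26 tested of 32, 4 fell (15.4%) and 1 rose (3.85%), against 6.56% lower and 12.4% higher of all genes, with a median of −0.43 (−0.04 without centring, when 1 fell and 2 rose). After quantile normalization 1 fell and 0 rose. Egr3, an early growth response gene, scored 45.84 and 44.06 against 23.71 and 20.95 (−1.40 ± 0.17, adjusted p = 0.0059). Most of this sum was an intron peak upstream of its TSS (chr14:70056890-70057538), with 39.03 and 44.06 against 17.09 and 14.46. The intergenic region nearest to the TSS (chr14:70075044-70075908) rose from 4.96 and 7.02 to 20.93 and 22.35 (adjusted p = 0.00802). Another (chr14:70065899-70066557) fell from 54.09 and 55.46 to 11.5 and 15.86, and a further one did not pass the test. Dusp1, the phosphatase gene that ends MAP kinase signaling, scored 40.72 and 40.41 against 30.76 and 31.87 (−0.76 ± 0.21, adjusted p = 0.0455). Zfp36, whose protein destabilizes cytokine mRNAs, scored 55.94 and 64.2 against 49.21 and 47.43 (−0.70 ± 0.14, adjusted p = 0.0177), and Btg2 scored 45.29 and 54.26 against 39.82 and 40.56 (−0.69 ± 0.15, adjusted p = 0.0221). The groups did not overlap at these 4 genes, and Egr2 was the member that rose. Egr3 kept its call without any 1 library, while Dusp1 and Egr2 lost theirs without each of the 4 (adjusted p of up to 0.148 and 0.163), Btg2 without any but ctrl/LPS replicate 1 (up to 0.0739), and Zfp36 without replicate 2 of either group (up to 0.0551).

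Interferon response genes did not pass the limma test at any of 36 tested of 38. The same was true of 14 C-type lectin receptor genes of 15, against 6.56% lower and 12.4% higher of all genes. With so few lectin genes, 0 calls say little. At an unadjusted p of at most 0.05, 6 interferon genes were lower and 0 higher, and 2 lectin genes were lower and 0 higher. Of all 7856 genes, 964 were lower and 1770 higher by that limit. The interferon genes had 27 differences below 0 and a median of −0.27, which was 0.11 without centring, and their summed score was 1189.74 and 1186.15 in ctrl/LPS and 1251.36 and 1187.81 in IL-4 PT/LPS. Isg20, an antiviral exonuclease gene, scored 33.36 and 43.74 against 13.52 and 16.46 (−1.74 ± 0.75, adjusted p = 0.151). IL-4 alone lowered 6 of the 36 interferon genes tested and raised 0, against 128 lower and 175 higher of all 7856 genes. The lectin genes had a median of −0.43, and Clec4b1 scored 5 and 4.91 against 8.12 and 12.54 (0.64 ± 0.38, adjusted p = 0.284).

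Of 21 lysosomal genes tested of 24, 5 rose (23.8%) and 1 fell (4.76%), against 6.56% lower and 12.4% higher of all genes (median −0.06, and 0.32 without centring). Ctsk, a cathepsin gene known from bone-resorbing cells, had no peak in ctrl/LPS and scored 26.12 and 25.06 in IL-4 PT/LPS (adjusted p = 0.00513), and Ctsd had none and then 8.37 and 7.56 (adjusted p = 0.0134). Ctsh rose from 4.04 and 7.08 to 22.95 and 15.35 (1.43 ± 0.32, adjusted p = 0.0241), Psap, a saposin precursor gene, from 11.56 and 10.52 to 23.2 and 23.47 (0.70 ± 0.18, adjusted p = 0.0393), and Tcirg1, a proton pump subunit gene, from 29.76 and 27.9 to 61.93 and 61.26 (0.71 ± 0.18, adjusted p = 0.0363), with −0.0113 over promoter-TSS peaks alone. Ctsc, a protease that activates others, fell from 42.91 and 61.8 to 27.59 and 29.15 (−1.25 ± 0.21, adjusted p = 0.012), with 0.11 when its highest peak score was used. Ctsk kept its call without any 1 library, whereas Psap and Tcirg1 lost theirs without each of the 4 (adjusted p of up to 0.0844 and 0.134), Ctsh without any but ctrl/LPS replicate 2 (up to 0.126), Ctsd without IL-4 PT/LPS replicate 1 (0.0503), and Ctsc without either IL-4 PT/LPS library (up to 0.0669).

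Of 18 glycolysis genes tested of 22, 2 fell (11.1%, against 6.56% lower and 12.4% higher of all genes) and none rose (median −0.20, and 0.19 without centring). At an unadjusted p of at most 0.05 in limma, 4 were lower and 0 higher, against 964 and 1770 of all 7856 genes. Pkm, the pyruvate kinase gene, scored 27.56 and 32.07 in ctrl/LPS and 4.04 and 6.35 in IL-4 PT/LPS, with 34.06 to 46.75 in the libraries without LPS (−2.94 ± 0.30, adjusted p = 0.00491). Pfkfb3, which drives glycolytic flux, scored 28.54 and 46.72 against 14.79 and 19.5 (−1.49 ± 0.27, adjusted p = 0.0145). Pkm was thus lowest in IL-4 PT/LPS by a wide margin and kept its call without any 1 library, whereas Pfkfb3 lost it without either IL-4 PT/LPS library (adjusted p of up to 0.0882). Lpl, the lipoprotein lipase gene, was the 1 call among 14 cholesterol and lipid-sensing genes, with no peak in ctrl/LPS and 25.48 and 18.71 in IL-4 PT/LPS (adjusted p = 0.00826, and 0.0534 without IL-4 PT/LPS replicate 1). Ptger2, a prostaglandin E2 receptor gene, was the 1 call among 9 prostaglandin and nitric oxide genes, with no peak and then 5.26 and 9.33 (adjusted p = 0.0348, and up to 0.122 without each of the 4 libraries). Its log2 difference turned to −0.31 with intergenic peaks counted and to −0.0298 over peaks with a score of at least 5. Of 9 scavenger receptor genes Cd36 was the 1 call. Of 27 ribosomal protein genes, Rps15 rose from 6.3 and 5.86 to 26.57 and 26.95 (1.75 ± 0.25, adjusted p = 0.00757) and Rpl19 from 11.49 and 15.29 to 37.04 and 32.67 (1.01 ± 0.24, adjusted p = 0.029), the latter lost without any library but ctrl/LPS replicate 2 (up to 0.117), and the median was 0.15.

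**Figure D5:**
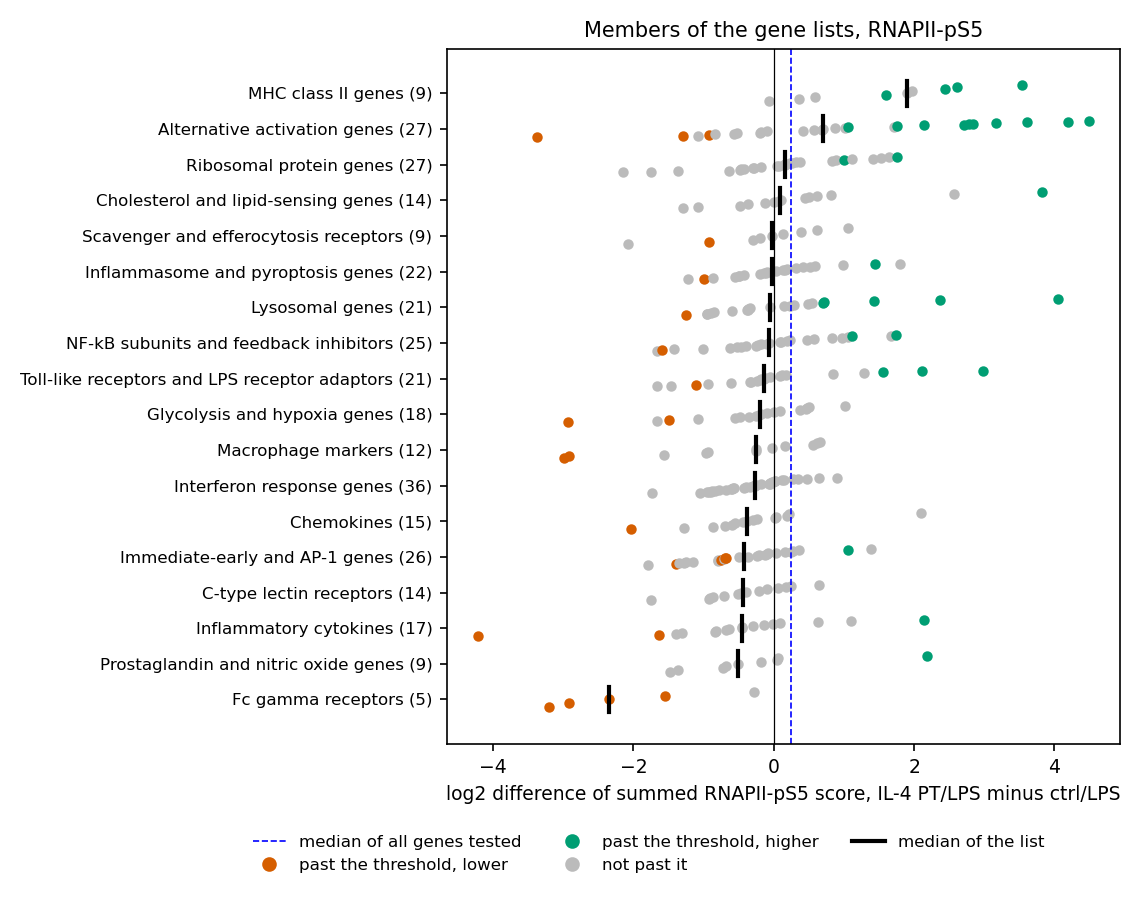
Log2 difference of the summed RNAPII-pS5 score, IL-4 PT/LPS minus ctrl/LPS (x axis), of each tested member of 18 gene lists (number tested in brackets), where members without a peak in a group take the lowest score. Black bars are list medians, from −2.35 for Fc gamma receptors to 1.89 for MHC class II genes, and the dashed line is the median of all genes (0.25).

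Markers of the macrophage and of other cells were read the same way. Of 12 macrophage markers tested of 15, 2 fell (16.7%) and none rose, against 6.56% lower and 12.4% higher of all genes. At an unadjusted p of at most 0.05 in limma, 5 were lower and 1 higher, against 964 and 1770 of all 7856 genes. Their summed score was 236.59 and 300.01 in ctrl/LPS and 292.43 and 292.44 in IL-4 PT/LPS. Besides Fcgr1, the marker that fell was Lyz2, with 52.25 and 51.19 in ctrl/ctrl, 16.36 and 14.45 in IL-4 PT/ctrl, 5.8 and 15.2 in ctrl/LPS, and no peak in IL-4 PT/LPS (adjusted p = 0.0101, and up to 0.055 without either IL-4 PT/LPS library). The summed score of the 10 neutrophil markers was 32.98 and 35.25 in ctrl/LPS and 50.75 and 50.05 in IL-4 PT/LPS, and S100a8 scored 5.88 and 10.16 in IL-4 PT/LPS with no peak outside intergenic regions in the other libraries (adjusted p = 0.00814). An intergenic region 2.3 kb from its TSS (chr3:90669535-90672803) scored 15.09 and 16.89 in ctrl/LPS, 9.23 and 8.1 in IL-4 PT/LPS, and 4.06 and 7.04 in ctrl/ctrl, and with intergenic peaks counted the difference of S100a8 was −0.0578. Single calls of other markers were Themis (4.43 and 3.7 in IL-4 PT/LPS, adjusted p = 0.0135), Gata2 (6.03 and 10.86, adjusted p = 0.00819), and Ms4a1, the CD20 gene, which scored 45.63 and 39.96 against 25.48 and 17.05 (−1.42 ± 0.27, adjusted p = 0.0166, and up to 0.0864 without any library but IL-4 PT/LPS replicate 1). Peaks annotated to the Ms4a1 transcript were 5.03 and 3.85 in ctrl/LPS with none in IL-4 PT/LPS (−1.87 ± 0.47, adjusted p = 0.0374), so most of that sum came from peaks annotated to other transcripts. The summed scores were 45.63 and 39.96 against 25.48 and 21.07 for B cell, 22.53 and 29.4 against 33.91 and 35.34 for T cell, 26.97 and 41.81 against 26.98 and 13.86 for fibroblast, 29.61 and 63.16 against 34.78 and 30.45 for dendritic cell, and 0 and 0 against 6.03 and 10.86 for erythroid and mast cell markers, where Gata2 was the sole member with a peak under LPS. Whether other cells take part in any difference was not tested.

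The study sorted LPS-induced genes by RNA-seq of BMDMs under the same pretreatment, with LPS for 3 hr, and that choice rests on other libraries of the same system, so the lists are not independent evidence of direction. Of all genes tested, 6.56% fell and 12.4% rose, with a median of 0.25. Of the 520 genes whose induction was lower after IL-4 pretreatment, 402 were tested, 50 fell (12.4%) and 13 rose (3.23%), with a median of −0.43. Of the 686 genes not changed at the mRNA, 552 were tested, 16 fell (2.90%) and 42 rose (7.61%), with a median of −0.01. Of the 144 genes with a higher induction, 123 were tested, 5 fell (4.07%) and 22 rose (17.9%), with a median of 0.42. The order of the 3 medians was the same without centring (−0.05, 0.36, and 0.76) and after quantile normalization (−0.43, 0.02, and 0.31), and over promoter peaks alone it was 0.07, 0.02, and −0.45, where 111, 169, and 33 genes were tested.

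IL-4 without LPS was compared in the same fit from the 4 libraries that had no LPS. At the 272 genes that were lower under LPS and had a peak in all 8 libraries, the median log2 difference of IL-4 alone was −0.30. Of these, 21 were lower (7.72%) and 2 higher (0.74%). At the 156 higher genes the median was 0.21, with 0 lower and 10 higher (6.41%). The 3169 genes of that kind that were not called had a median of −0.00, with 30 lower (0.95%) and 34 higher (1.07%). At 454 lower regions the median was −0.30, with 48 lower (10.6%) and 4 higher (0.88%). At 388 higher regions it was 0.20, with 4 lower (1.03%) and 56 higher (14.4%). The 4190 regions not called had 59 lower (1.41%) and 110 higher (2.63%). Across the 5032 regions with a peak in all 8 libraries, the differences with and without LPS correlated with r = 0.27 (Spearman 0.25), as a description over regions that are not independent and were centred on one another. Of the named genes, Fcgr1, Ppef2, Rdh10, Ctsc, and Myd88 were lower and Retnla, Ear11, Micalcl, Klf9, Cdh1, Matk, and Myc higher in both settings.

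The interaction, IL-4 pretreatment with LPS minus IL-4 without LPS, was past the threshold at 1166 regions (6.70%) in the lower and 1498 (8.60%) in the higher direction. At genes it was 124 (1.58%) and 197 (2.51%), and both counts were 0 with quantile normalization and with the replicate number as a block, although 777 and 815 and 716 and 1079 genes had an unadjusted p of at most 0.05. Il1rn was such a gene, since IL-4 gave 14.84 and 8.94 against 4.69 and 6.6 without LPS and 20.02 and 25.26 against 56.01 and 51.18 with it (interaction −2.63, adjusted p = 0.0459). However, its intron region (chr2:24345872-24347747) and termination site region (chr2:24350915-24352486) had no peak in any library without LPS. The Il1rn sums without LPS thus came from peaks at other positions, and its interaction compares different sites. Pkm scored 34.06 and 46.18 against 40.19 and 46.75 without LPS, and fell with it (−2.75, adjusted p = 0.0346). Egr3, whose sum came mostly from the intron peak upstream of its TSS, did not differ without LPS (35.02 and 34.85 against 36.03 and 33.98). It was lower with LPS (−1.33, adjusted p = 0.0403). Ctsh scored 41.96 and 44 against 81.27 and 69.5 without LPS and rose with it (2.29, adjusted p = 0.0459).

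RNAPII-pS2, the elongating form, was lower in IL-4 PT/LPS at 420 genes (4.38% of 9579) and higher at 607 (6.34%). Without any 1 of the 4 LPS libraries these counts were smaller, with 191 and 320 or 199 and 341 without ctrl/LPS replicate 1 or 2, and 222 and 281 or 250 and 302 without IL-4 PT/LPS replicate 1 or 2. Of the 515 genes with lower RNAPII-pS5, 483 were tested for pS2, the median log2 difference was −0.54, 99 were lower (20.5%) and 3 higher. Of the 976 genes with higher RNAPII-pS5, 857 were tested, the median was 0.90, 154 were higher (17.97%) and 9 lower, and at genes with no RNAPII-pS5 call the median was 0.08 over 6086. Across 7426 genes the differences in both marks correlated with r = 0.46 (Spearman 0.45), a description over genes that are not independent. Named genes called for both marks in the same direction were Fcgr1 (pS2 −2.69), Pkm (−1.86), Saal1, Ppef2, and Nlrp1b among the lower, and Edn1 (3.36), Il4i1 (2.60), Cdh1, Matk, Myc, Retnla, Slc7a2, Ear11, H2-Aa, H2-DMa, Lpl, Micalcl, Klf9, Nos1ap, Wdr4, Cdk5r1, Mtch2, and Rpl19 among the higher. Il10 and Ccl22 had pS2 differences of −0.16 and −0.17 and did not pass the test.

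p65 at the RNAPII-pS5 regions was lower at 276 (2.24% of 12330) and higher at 909 (7.37%), and after quantile normalization the counts were 619 and 847. The p65 lists were themselves longer after pretreatment, with 26305 and 26820 peaks in ctrl/LPS and 36738 and 38955 in IL-4 PT/LPS. Of the 1870 regions with lower RNAPII-pS5, 1518 could be tested for p65, the median was −0.35, 111 were lower (7.31%) and 10 higher. Of the 3106 regions with higher RNAPII-pS5, 1857 could be tested, the median was 1.02, 511 were higher (27.5%) and 14 lower, and at the other regions the median was 0.10 over 8955. A p65 peak was present in ctrl/LPS at 79.3% and 79.1% of the lower and 41.3% and 41.9% of the higher regions, and in IL-4 PT/LPS at 75.7% and 76.9% and at 59.6% and 61.7%. Lower regions thus mostly kept a p65 peak.

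The motifs marked in the sequences above were counted in the middle 300 bases of all 12754 intronic and intergenic regions tested. The AP-1 letters TGANTCA were in 28.7% of 1649 lower and 18.1% of 2022 higher windows, against 23.7% of all windows. The PU.1 letters GAGGAAGT were in 12.3% of the lower and 6.03% of the higher windows (8.93% of all), and the C/EBP letters TTGCNNAA in 21.2% and 16.1% (17.9% of all). In contrast, the STAT letters TTCNNNNGAA were in 7.10% of the lower and 11.5% of the higher windows (9.53% of all), whereas the NF-kB letters GGANTTTCC were in 2.79% and 2.82% (2.93% of all). Among windows with a peak in each LPS library, AP-1 letters were in 26.5% of 460 lower, 7.58% of 211 higher, and 23.2% of all 5740, and PU.1 letters in 12.8%, 3.32%, and 8.42%, while STAT letters were in 7.83%, 8.06%, and 9.36%. The median GC content was 44.7% in the lower, 47.7% in the higher, and 46.3% in all windows, and its part in these shares was not tested. In RefSeq promoters (GRCm38.p6, 250 bases before to 50 after the start) of the 5834 tested genes that matched by symbol, STAT letters were in 3.99% of 376 lower and 7.86% of 738 higher genes, against 5.74% of all tested and 6.99% of 27025 promoters, and PU.1 letters in 6.92%, 3.12%, 3.87%, and 3.28%. A match is a run of letters and not a measured binding site.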

How the data were processed

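ChIP-seq of RNAPII-pS5, and of RNAPII-pS2 and p65 as other readouts, was analysed in the 4 combinations of IL-4 pretreatment and LPS, with 2 libraries per group as given by their labels. Per the study's methods and the submitters' processing notes, the authors aligned reads to mm10 with BWA 0.7.10 and SAMtools 0.1.19, called peaks per library with MACS2 2.0.10, removed blacklisted regions, and annotated the peaks with HOMER 4.2. The deposited value of a peak is its MACS2 score on a −log10 scale; a q-value limit is stated, but a few scores lie below it, so whether the scores are p- or q-values is not settled. A score grows with sequencing depth, which is not given in the peak lists, and the input control is not given in the sources used here. The authors compared groups on reads, which was not repeated here.

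Peaks overlapping by at least 1 bp were merged across libraries. The log2 of the highest score of a region, or of the summed score of a gene's peaks other than intergenic ones, was compared for features that 2 or more of the LPS lists held. A missing peak took the lowest score of that antibody (RNAPII-pS5 1.44, RNAPII-pS2 1.39, p65 1.31), and libraries were centred on the median of features with a peak in all 8 lists. Group means over 8 libraries were fitted with limma 3.58.1 (R 4.3.3, empirical Bayes with trend, two-sided, Benjamini-Hochberg adjusted over all features tested, threshold 0.05), with the interaction as a contrast. A second rule asked for groups that do not overlap and a log2 difference of at least 1. The fit was tested on simulated data. Tables were made with pandas 2.3.3 and numpy 2.4.6 under Python 3.11.15 and plots with matplotlib 3.10.9.

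Named genes were the 10 largest changes each way among genes past the threshold with groups that do not overlap and a mean score of at least 10 in the higher group, unnamed loci left out. From each of 24 gene lists (447 genes), the members past the threshold and the 2 largest differences each way were taken, with 5 genes the study followed. Regions were the 5 largest each way outside promoters and exons. The comparison, its members, and the gene lists were chosen with earlier results of these data known. Alternatives were other scalings, floors, filters, peak merging, gene assignments, a replicate block, and leaving out each LPS library. With 2 libraries per group, single values were tested only in the fit across all features. A few genes that meet these rules are not reported here.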

Additional observations from a re-analysis of the deposited data

Results flagged for a closer look

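The effect of IL-4 differed between cells with and without LPS, by the interaction term of the limma fit, at 1166 regions in the lower and 1498 in the higher direction and at 124 and 197 genes. Of the named genes, the interaction was negative at Ros1 (−3.90 on the log2 scale), Il10 (−3.41), Saal1 (−5.09), Asb5 (−3.74), Tnfsf4 (−3.66), Setd4 (−3.68), Sim1 (−5.63), Pkm (−2.75), Egr3 (−1.33), Dusp1 (−1.64), and Il1rn (−2.63). It was positive at Scaf8 (4.36), Wdr4 (3.10), Cdk5r1 (5.16), Mtch2 (3.50), Ccl22 (3.17), Csf2 (2.14), Ctsh (2.29), and S100a8 (2.32). Where a group had no peak, which is so for all of these but Pkm, Egr3, Dusp1, Il1rn, and Ctsh, the size depends on the score filled in for a missing peak. At Il1rn the sums with and without LPS came from peaks at different positions. No gene passed the interaction threshold after quantile normalization or with the replicate number as a block, where the smallest adjusted p was 0.0613 and 0.0809.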

How the results depend on the processing

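Of 72 named genes with a call, 32 kept it without any 1 LPS library and 22 under every alternative that tested them. Lower and higher regions numbered 1270 to 1656 and 2199 to 2683 when a library was left out, and genes 255 to 289 and 408 to 751. The interaction then gave 1007 to 1163 and 1358 to 1485 regions and 76 to 100 and 160 to 186 genes, RNAPII-pS2 191 to 250 and 281 to 341 genes, and p65 317 to 385 and 962 to 1095 regions. At an unadjusted p of at most 0.05, 2859 regions were lower, 964 genes were lower and 1770 higher, and the interaction gave 2335 and 2765 regions and 736 and 1119 genes, RNAPII-pS2 1121 and 1452, and p65 883 and 1973. With adjusted p of at most 0.1, 804 and 1493 genes passed. A floor 4 times as high left 1054 lower and 1078 higher regions and 397 higher genes, and peaks with a score of at least 5 gave 1654 higher regions and 429 higher genes. With a peak in each of the 4 LPS lists, 361 and 249 regions and 237 and 114 genes remained, as fewer features were tested. No centring gave 321 lower genes, quantile normalization 443 higher genes, 839 higher interaction regions, 0 and 0 interaction genes, and 619 lower p65 regions. Promoter-TSS peaks alone gave 131 lower and 412 higher genes, and counting intergenic peaks 836 lower genes. The sign turned for Ctsc with the highest peak score (0.11), Tcirg1 over promoters (−0.0113), Cyld (−0.0859) and Ptger2 (−0.0298) with scores of at least 5, S100a8 (−0.0578) and Ptger2 (−0.31) with intergenic peaks, and Rps3 by the gene of the transcript (2.57); where not stated, the cause was not tested. Same-numbered replicates did not deviate together (r of −0.007 to 0.003 over 5032 regions). This cannot settle whether equal numbers mark libraries made together, which the labels do not state. With the replicate block, 1708 and 2866 regions, 451 and 809 genes, 914 and 1203 interaction regions, and 0 and 0 interaction genes passed. RNAPII-pS2 then gave 285 and 445 genes and p65 146 and 588 regions. Scores without read counts give no depth, so a missing peak is a peak not detected and not an absence of polymerase. Where a group had no peak, both of its libraries hold the same filled-in score. A call kept with 1 of these left out is then no measure of that group's spread.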
